A study of Paulownia elongata with 2 samples.

Results

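This account concerns 145 assembled leaf transcripts of Paulownia elongata that were less abundant in salt-irrigated than in control plants and were still detected under salt. They were chosen by their values in the authors' normalized matrix, in which each library's counts are multiplied by 1 constant. The lower of the 2 control values had to be at least 30 and at least 3-fold above the higher of the 2 salt values, and both salt values had to be above 0. Of 58997 assembled genes, 10968 met the control floor of 30 alone, and 145 of these, or 1.32%, met the whole rule. The direction, size and order of the difference between treatments were therefore fixed by the choice, and all such values below are descriptions without a test. A further condition, that no raised assembled gene stands in the same assembly component, left out 0 of them.

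Paulownia elongata is a fast-growing tree grown for biomass. Potted plants, 3 years old, stood in a greenhouse under natural light. The salt group received 1.5 L of 125 mM NaCl per day over 10 days, and the control group, labelled WT, received the same volume of water, in the same peat-based soil. Leaf RNA was sequenced in 2 salt libraries (SS1 and SS2) and 2 control libraries (AC1 and BC1). The libraries held 3969544 (SS1), 4384532 (SS2), 4682210 (AC1) and 3752433 (BC1) expected counts. Each treatment is a single sample record, whose label speaks of a pair of merged replicates and does not say whether they came from separate plants. Here n counts libraries, and the spread and p-values measure differences between libraries that may be partly technical. The label of the salt record speaks of SS2 and SS4, its files are SS1 and SS2, and each file was taken to belong to its record.

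Salt in the soil makes water harder for roots to take up, and sodium and chloride that reach the leaf disturb the ion balance of its cells. Leaves of salt-stressed plants generally close their stomata, slow their growth and photosynthesis, and change the transcripts for ion transport, hormone signalling and protective solutes. Which of these processes the 145 members serve could not be read from the files, which pair no ID with a gene name or a sequence. An assembled gene here is a group of transcript sequences built from the reads, and its isoforms are the alternative sequences listed under it. Assembled genes whose IDs share the text before the bar form a component, the unit in which the assembly grouped related sequences.

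The members spanned more than 3 orders of magnitude in control leaves. Their normalized counts had a lowest, median and highest value of 0.79, 30.1 and 2920 in SS1, 0.90, 28.9 and 8763 in SS2, 31.4, 197.9 and 113950 in AC1, and 30.2, 264.8 and 39064 in BC1. By the rule no member overlapped between treatments. In whole leaves, fewer cells that make a transcript and less of it per cell cannot be told apart. Scaled per length, the median member had 11.2 TPM in SS1 and 9.52 TPM in SS2, against 46.6 TPM in AC1 and 73.0 TPM in BC1. The median over all assembled genes at the control floor was 28.3 TPM in SS1, 25.9 in SS2, 20.6 in AC1 and 23.1 in BC1. In control leaves the typical member was thus above the typical assembled gene at the floor, and in salt leaves it was below it. A mean control level of at least 100 TPM was found for 48 of 145 members (33.1%), beside 9.33% of the assembled genes at the floor. The rule set control values against salt values, so these levels describe the chosen set and are no separate trait of it.

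**Figure D1:**
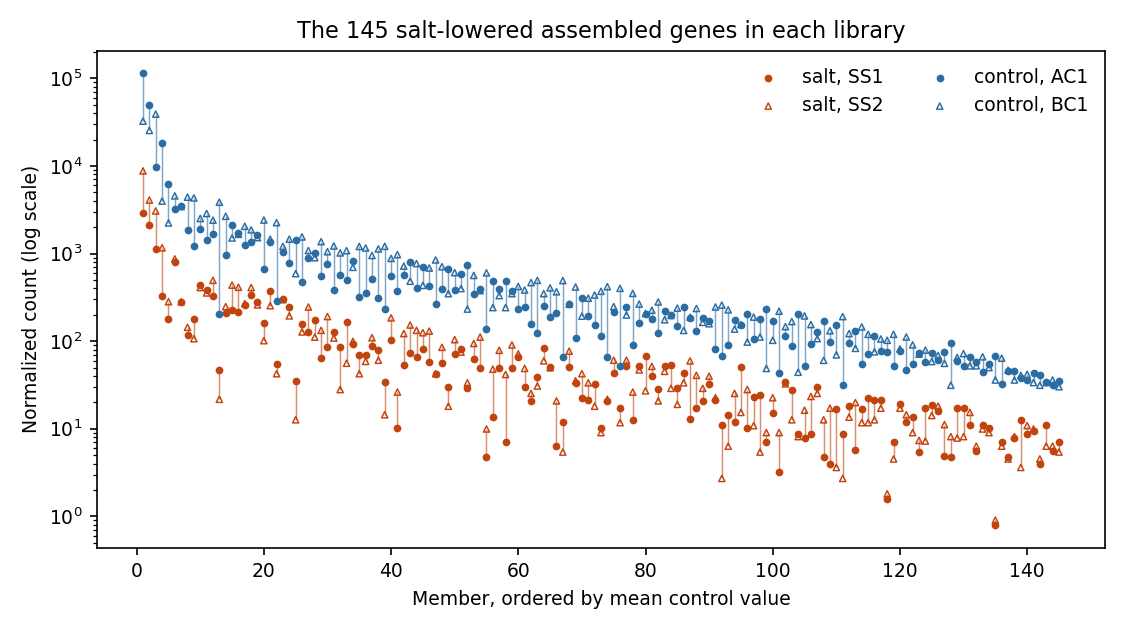
Normalized counts (log scale) of the 145 members in the salt libraries SS1 and SS2 (orange) and the control libraries AC1 and BC1 (blue), ordered by mean control value; a line joins the libraries of a treatment. The orange and blue points of a member do not overlap, which the rule fixed, and the line between AC1 and BC1 is long for many members.

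Together the members took 0.514% of the counts in SS1 (95% Wilson interval 0.507 to 0.522) and 0.702% in SS2 (0.695 to 0.710), against 4.66% in AC1 (4.65 to 4.68) and 4.43% in BC1 (4.41 to 4.45). These intervals cover counting error only. The 3 members with the most control counts supplied much of this. Without them the shares were 0.318% in SS1 (0.312 to 0.323), 0.301% in SS2 (0.296 to 0.306), 1.50% in AC1 (1.48 to 1.51) and 2.21% in BC1 (2.19 to 2.22). The mirrored rule, with the treatments exchanged, found 132 assembled genes.

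The most abundant member in control leaves, by normalized count and by TPM, was TR8007|c0_g1. It had 14 isoforms, a mean length of 978 bases and was alone in its component. Its normalized counts were 2920 in SS1 and 8763 in SS2, against 113950 in AC1 and 32440 in BC1. The libraries of each treatment were 3-fold or more apart, so the height of the drop depended on which libraries were set side by side. Per length it averaged 1879 TPM ± 1144 in salt and 19932 TPM ± 15904 in control (SD, n = 2 libraries each). The log2 ratio of the mean normalized counts, salt over control, was -3.65, and the fit with edgeR gave -3.75 with a standard error of 1.50.

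The member with the widest gap between treatments was TR28221|c0_g1, of 2209 bases, with 1 isoform. It had 2 counts in SS1 and 2 in SS2, against 65 in AC1 and 88 in BC1, which are normalized counts of 1.58 and 1.81 in salt and 75.7 and 102.2 in control. Its lower control value was 41.9 times its higher salt value. In contrast to the most abundant member, its libraries lay close together within each treatment. At 2 counts in each salt library, the closeness of the salt pair says little. The ratio of control over salt was 52.5, and its exact 95% interval for counting error ran from 20.1 to 195.0, because the salt side rests on 4 counts. Its fitted log2 fold change was -5.67 with a standard error of 0.53, taken from the fold change and its F statistic. That error is narrower than the counting interval allows, so it understates the uncertainty at 4 salt counts.

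The next 5 members by control level, described by their mean length, showed the same variety. A member of 1331 bases had normalized counts of 2138 in SS1 and 4072 in SS2, against 49015 in AC1 and 25420 in BC1. A member of 1318 bases had 1123 in SS1 and 3062 in SS2, against 9795 in AC1 and 39065 in BC1. Here BC1 was the higher control library, whereas AC1 was the higher one for the first. A member of 1511 bases had 328.5 in SS1 and 1163 in SS2, against 18395 in AC1 and 3970 in BC1. A member of 2634 bases had 181.3 in SS1 and 281.9 in SS2, against 6157 in AC1 and 2236 in BC1. All 4 had more in SS2 than in SS1, and 3 of them had more in AC1 than in BC1. The fifth, of 1332 bases, was the steadiest, with 803.5 in SS1 and 867.5 in SS2, against 3258 in AC1 and 4549 in BC1, a log2 ratio of -2.22.

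By width of the gap, the next member after TR28221|c0_g1 was a fragment of 328 bases with 1 count in each salt library, against 58 in AC1 and 31 in BC1. Its control over salt ratio of 61.1 had a counting interval of 16.4 to 512.1. The other 4 rested on more salt counts. A member of 1562 bases had 34.8 in SS1 and 12.7 in SS2, against 1437 in AC1 and 590.0 in BC1. It and the fragment stood in the same component. A member of 1799 bases had 10.3 in SS1 and 26.2 in SS2, against 371.4 in AC1 and 971.0 in BC1. A member of 1408 bases had 4.75 in SS1 and 9.94 in SS2, against 136.2 in AC1 and 601.6 in BC1. These 3 had log2 ratios of salt over control of -5.42, -5.20 and -5.65. The last, of 2678 bases, combined a wide gap with high counts: 118.7 in SS1 and 143.7 in SS2, against 1845 in AC1 and 4401 in BC1.

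Most members lay much nearer to the threshold. The lower control value was under 4 times the higher salt value for 73 of 145, at least 5 times for 42 and at least 10 times for 10. The log2 ratio of the means, salt over control, had a median of -2.84 and ran from -5.93 to -1.91. Its median over all assembled genes at the floor was -0.05. The member just inside the fold threshold had a gap of 3.01, with 102.9 and 184.3 in SS1 and SS2 against 554.2 and 879.2 in AC1 and BC1. The nearest assembled gene outside had a gap of 2.998, with 20.6 in SS1 and 15.4 in SS2, against 61.7 in AC1 and 3999.9 in BC1. At the control floor, the lowest member had 30.2 in its lower control library and the nearest outside had 29.1. A single assembled gene met both thresholds but had 0 counts in SS1 and was left out, with 5.87 in SS2 against 142.0 in AC1 and 215.6 in BC1. Salt counts were few for some members: 14 had at most 10 counts in both salt libraries, and 7 had under 5 in at least 1 of them.

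The libraries of a treatment differed more over the members than over the assembled genes at the floor. SS1 and SS2 were within 2-fold for 100 of 145 members (69.0%), beside 86.3% at the floor. AC1 and BC1 were within 2-fold for 95 members (65.5%), beside 79.6% at the floor. The median size of the log2 ratio was 0.59 between the salt libraries and 0.72 between the control libraries, beside 0.39 and 0.47 at the floor. The median expected count over the members was 38 in SS1 and 32 in SS2, and the part of counting error in the salt spread was not tested. BC1 was at least 2-fold above AC1 for 38 members (26.2%), beside 11.6% at the floor, while AC1 was at least 2-fold above BC1 for 12 members (8.28%), beside 8.82%. The widest control spread belonged to a member of 3378 bases, with 46.7 in SS1 and 21.7 in SS2, against 201.4 in AC1 and 3851 in BC1. The lower library sets the rule's control value, so members with a wide control spread had large ratios of means by construction. The median log2 ratio, salt over control, was -3.56 for the 38 with high BC1, -3.80 for the 12 with high AC1, and -2.50 for the 95 with both controls within 2-fold.

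A core of 71 members (49.0%) had both pairs of libraries within 2-fold, beside 70.6% of the assembled genes at the floor. Their log2 ratios ran from -5.93 to -1.91, with a median of -2.44. Their median level was 11.2 TPM in salt and 47.0 TPM in control. That their gap between treatments was wider than the spread within either pair follows from this choice and the rule. Of the 4 members with most control counts, 3 had control libraries more than 2-fold apart.

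The order of the libraries within control and within salt was compared across members. Of the 53 members with more in AC1 than in BC1, 36 had more in SS2 (24.8% of all members, beside 21.9% at the floor) and 17 more in SS1 (11.7% beside 19.2%). Of the 92 with more in BC1, 43 had more in SS2 (29.7% beside 34.2%) and 49 more in SS1 (33.8% beside 24.7%). The correlation of log2 (AC1/BC1) with log2 (SS2/SS1) was 0.24 (Pearson) and 0.24 (Spearman) over the 145 members, and 0.05 and -0.02 over 10967 assembled genes at the floor detected in both salt libraries. These are descriptions over assembled genes, which share the same 4 libraries.

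**Figure D2:**
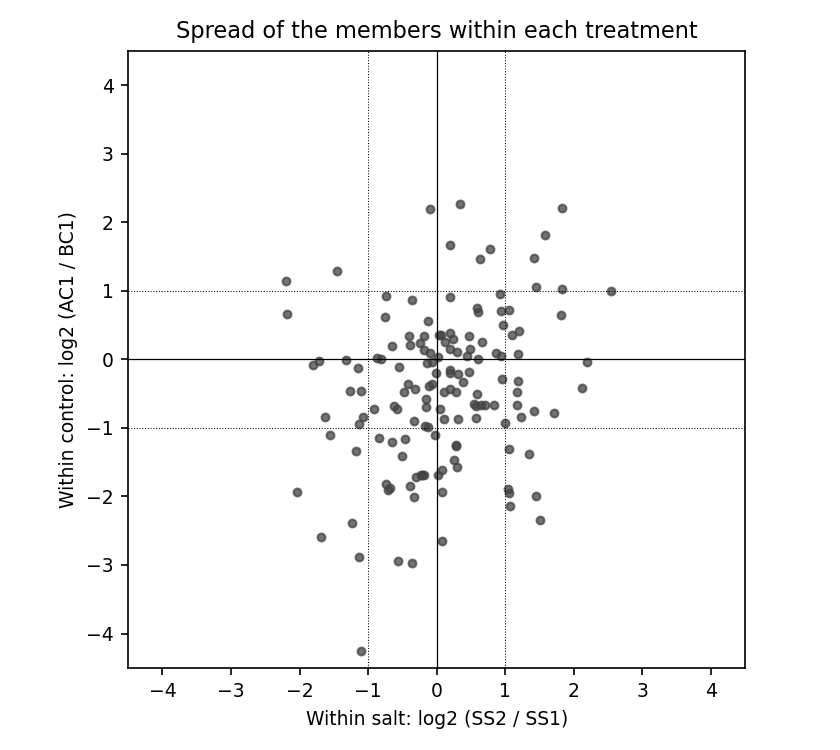
For each of the 145 members, the log2 ratio of SS2 over SS1 (horizontal) and of AC1 over BC1 (vertical), from normalized counts; dotted lines mark 2-fold. The 71 members within 2-fold in both treatments lie inside the central square, and the tail toward negative vertical values holds the 38 members at least 2-fold higher in BC1.

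The size of the members' difference depended on how libraries are scaled. In all 145 the higher salt library lay below the lower control library under each of 4 scalings, which follows largely from the 3-fold gap that the rule required. Of all assembled genes at the floor, the share in that order was 22.4% with the normalized matrix, 6.97% with library totals, 25.7% with TMM-scaled CPM and 10.1% with TPM. The 3-fold gap was kept by 66 with library totals, by 142 with TMM-scaled CPM and by 83 with TPM. The smallest gap of any member was 1.73 with library totals and 1.61 with TPM. Scaling to library totals moved the median log2 ratio of all assembled genes at the floor to 0.41, from -0.05 with the normalized matrix. Relative to that median the members lay at -2.80 with the normalized matrix, -2.83 with library totals, -2.78 with TMM and -2.83 with TPM. A constant per library, as in library totals and TMM, shifts all assembled genes nearly alike. The closeness of these values was thus largely fixed in advance.

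Several features that the rule did not use are given beside the same features of all 10968 assembled genes at the floor. Assembled genes are not replicates, so no test was made. Members more often had a single isoform, 80 of 145 (55.2%) beside 35.7%. They less often had 3 or more, 36 of 145 (24.8%) beside 40.5%. Their median length was 1318 bases, beside 1492, and 16 members (11.0%) were shorter than 500 bases, beside 3.00%. Most of these short members stood in components that held several members. Whether such members are pieces of 1 transcript, counted repeatedly here, cannot be told. Being alone in a component was about as frequent, at 63 of 145 (43.4%) beside 41.9%. Expected counts that were not whole, which arise where reads match several sequences, occurred in at least 1 library for 16 members (11.0%), beside 8.69%, and the values of these 16 may include reads of related sequences.

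Length and isoform number go together, so the share of members was also read within classes. Among assembled genes at the floor under 1000 bases, 3.45% of those with 1 isoform were members, beside 1.09% of those with more. From 1000 to 2000 bases the shares were 1.57% and 0.950%, and from 2000 bases up 1.19% and 0.756%. At a mean control value of 30 to 300 normalized counts they were 1.63% and 0.530%, and at 300 or more 4.26% and 2.10%. The single-isoform share was the higher in each of these 5 classes. By control level alone, members made up 0.756% of the assembled genes at 30 to 100 normalized counts, 1.15% at 100 to 300, 1.93% at 300 to 1000, 5.41% at 1000 to 3000 and 6.67% above. Control level, unlike length and isoform number, was used by the rule. A wide control spread also raises the mean, so this order may be partly built in and was not tested.

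**Figure D3:**
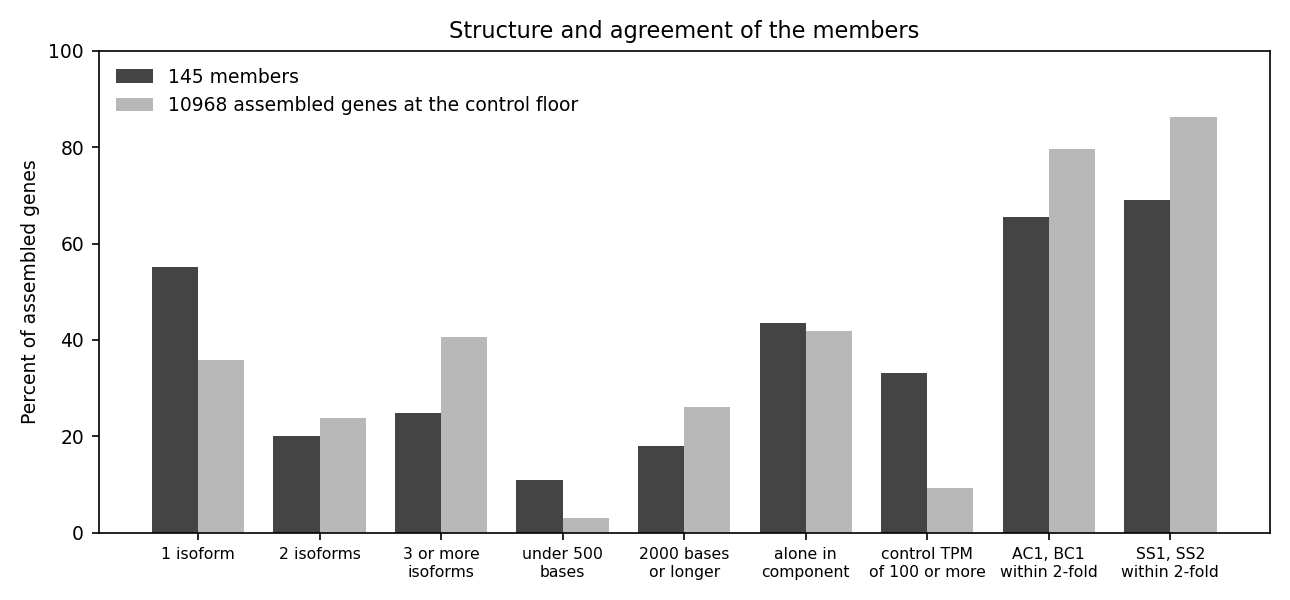
Percent of the 145 members (dark bars) and of the 10968 assembled genes at the control floor (light bars) with each feature named on the horizontal axis. The dark bar is higher for 1 isoform (55.2% beside 35.7%) and lower for agreement of SS1 with SS2 within 2-fold (69.0% beside 86.3%). Control TPM and the agreement of libraries rest on the counts that the rule used.

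The listed length of an assembled gene with several isoforms differs among libraries. It cannot differ for the 80 members with 1 isoform. Of the 65 with several, mean length differed by over 10% between treatments for 15 (23.1%), beside 12.9% of the assembled genes at the floor with several isoforms. It was shorter in salt for 10 and longer in salt for 5. In the most shortened, with 5 isoforms, the length was 3596 bases in SS1 and 2258 in SS2, against 3753 in AC1 and 4584 in BC1. Its salt libraries differed from each other by more than SS1 differed from AC1.

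The 145 members came from 132 components. In 10 components several members stood together, 3 components with 3 members each and 7 with 2 each, 23 members in all. In the component with the highest control level, all 3 assembled genes were members. The longest had the 49015 and 25420 control counts given above, and the others, of 266 and 303 bases, had 13.5 and 7.12 in SS1 and 47.8 and 41.6 in SS2, against 489.9 and 481.1 in AC1 and 241.7 and 241.5 in BC1. All 3 had about 2-fold more in AC1 than in BC1. Whether they are pieces of 1 transcript or near-identical copies cannot be told from the files. A second component, also made up of 3 members only, held the members of 2634, 1562 and 328 bases described above. All 3 had more in AC1 than in BC1.

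Components with members also held 162 companions, assembled genes of the same component that did not meet the rule. Of these, 58 averaged under 5 normalized counts over the 4 libraries, and 44 met the control floor. Of these 44, 29 (65.9%) were lower in each salt library than in each control library, and 0 were higher in each. Over all assembled genes at the floor, 22.4% were lower in this sense and 19.9% higher. With library totals 23 of the 44 were lower (beside 6.97% at the floor) and 2 higher, with TPM 25 (beside 10.1%) and 1, and with TMM-scaled CPM 32 (beside 25.7%) and 0. All 145 members were lower by construction. The median log2 ratio of these 44, salt over control, was -1.40, ranging from -5.93 to 0.21. The lowest value belongs to the assembled gene described above that met both thresholds and was left out for its 0 counts in SS1. Companions may share reads with the members beside them, and how much this adds to the common direction was not tested.

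**Figure D4:**
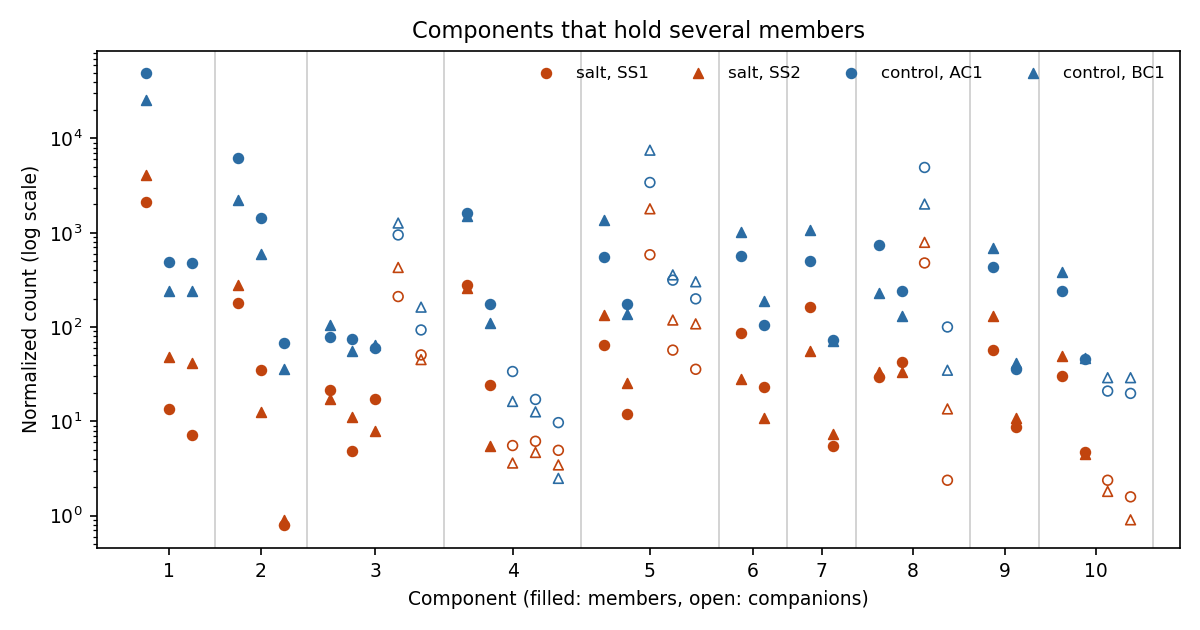
Normalized counts (log scale) in the 4 libraries for the 10 components with several members, numbered by member number and control level; filled symbols are members, open symbols companions, and assembled genes at 0 in any library are not drawn. Salt symbols (orange) lie below control symbols (blue) for every member drawn, and for every companion drawn except 1, the last of component 4.

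Fits over the whole table gave few formal calls. edgeR's quasi-likelihood test with Benjamini-Hochberg adjustment called 0 of 20016 tested assembled genes lower in salt (0%), and 0 of the 145 members, whose adjusted p ran from 0.451 to 0.578. At an unadjusted p under 0.05, edgeR had 964 lower in salt (4.82% of those tested), among them 144 of the 145 members. This p is 2-sided, and the 964 are the lower part of 1747 that passed in both directions. DESeq2 called 177 of 19933 lower at an adjusted p under 0.05 (0.888%), among them 114 members. The edgeR result depended on the control libraries: without AC1 it called 727 of 22754 lower (3.2%), 118 members among them, and without BC1 314 of 23147 (1.36%), 84 members among them. The rule used the same contrast, so the members' counts add nothing to these shares. The edgeR fold changes of the members had a median of -2.86 on the log2 scale, with standard errors of 0.35 to 1.59.

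In the authors' deposited table of 646 assembled genes, 324 are listed as higher in control. It holds 86 of the 145 members (59.3%), which make up 26.5% of those 324, and 2.72% of all assembled genes at the floor are listed so. It was made from the same libraries, so it is no independent sign of direction. Members in the authors' deposited table had closer control libraries, with a median size of the log2 ratio between AC1 and BC1 of 0.49, against 1.61 for the 59 members not in it. Controls within 2-fold were found for 79 of the 86 and for 16 of the 59. A list made from the same libraries can depend on their spread, so this difference may be built into it. In the authors' deposited longer table, which lists 58576 of the 58997 assembled genes, the posterior probability of equal expression is 0 for TR28221|c0_g1 and 0.804 for TR8007|c0_g1. In the authors' deposited Cuffdiff table, 119 members have a tested locus. A locus marked significant is found there for 34 of all 145 members (23.4%), beside 0.438% of all assembled genes at the floor. Both shares include assembled genes without a tested locus. The members were chosen for their gap between treatments in this series, so the higher share among them is no independent support. That table names its conditions only q1 and q2, so no direction was taken from it. Both of the authors' deposited tables mark 17 members.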

How the data were processed

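Members and measures were chosen with earlier results of these data known. The submitters' processing notes name RSEM 1.3.0, Cuffdiff 2.2.1 and Cufflinks 2.1.1, and the aligners TopHat2 2.0.9 and Bowtie2 2.1.0, without settings. Which tool assembled the transcripts is not stated there. Per the file headers, RSEM's expected counts, lengths and TPM values were deposited for each library. The normalized matrix deposited by the authors is a signal, the expected count times 0.792 (SS1), 0.904 (SS2), 1.164 (AC1) or 1.161 (BC1). The authors deposited posterior probabilities of equal expression (a score from 0 to 1), fold ratios of control over salt, and Cuffdiff q-values.

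Expected counts were rounded to whole numbers and fitted with edgeR 4.0.16 (R 4.3.3; TMM, filterByExpr, Benjamini-Hochberg adjustment over all tested assembled genes). DESeq2 1.42.0, limma 3.58.1 on log2(TPM + 1) or log2(TPM + 0.1), other scalings and thresholds, left-out libraries and a replicate block were alternatives. Standard errors come from the fitted fold change and its F statistic, and can be too small where salt counts are few. A count within 0.005 of a whole number was taken as whole. Libraries of a treatment were not copies: a chi-square per degree of freedom was 30.2 for salt and 84.9 for control, where sampling noise gives about 1. The edgeR script was tested on simulated data, where 6.2% to 11.2% of the calls at an adjusted p under 0.05 were false. A first acceptance limit on false calls had failed and was replaced afterwards. The simulation used all 4 libraries and recovered 150 to 175 of 200 assembled genes lowered 16-fold, whereas the real fit called 0. Fits with a library left out were not simulated. Their calls may also hold more false ones than the threshold implies, which was not tested. IDs printed are the member with the highest mean control value and the member with the widest gap. Without IDs, the next 5 of each kind were described. The member with the widest control spread and the one most shortened in salt were chosen after their values were seen. The files hold no names, sequences or cell type markers. Python 3.11.15 and scipy 1.17.1 were used.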

Additional observations from a re-analysis of the deposited data

How the results depend on the processing

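The edgeR count of 0 called assembled genes stayed 0 with RLE size factors, no filter, the limma fits on TPM and the replicate block (AC1 with SS2, each named replicate 1 in its label, and BC1 with SS1), and was 345 with DESeq2. With the block, 1479 had an unadjusted p under 0.05, against 1747 without it, and the deviations of AC1 and SS2 correlated at 0.10, so with 2 pairs and doubtful salt numbers they were not taken as paired. Leaving out a library gave 0 to 1245: 1245 without AC1 (118 members called lower), 477 without BC1 (84), and 0 without SS1 or SS2. Such fits take their spread from the remaining pair and assume that the lone library varies alike.

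The number of members, 145, was 64 with library totals, all of them among the 145, 341 at 2-fold, 72 at 4-fold, 172 at a control floor of 20 and 114 at 60. It was 314 to 878 with a library left out, which relaxes the rule: 323 without SS1, 314 without SS2, 878 without AC1 and 577 without BC1. The median log2 ratio was -2.42 with library totals, -2.52 with TPM, -2.00 as highest salt over lowest control, and -2.98 to -2.46 with a library left out. Without the 3 members with most control counts, an alternative chosen after the data were seen, it was -2.84. The median length was 1344 bases at 4-fold and 1469 at a floor of 60, beside 1603 for all assembled genes at that floor. The median log2 ratio of BC1 over AC1, 0.42, was 0.75 with library totals. That of SS1 over SS2, -0.08, turned to 0.25 with library totals and 0.16 with TPM. No member passed in edgeR with all 4 libraries, although the fitted log2 fold changes reached -5.89.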
